A study of Rattus norvegicus with 10 samples.

Results

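The nuclear-encoded subunits of the mitochondrial oxidative phosphorylation enzymes were examined in the adult rat prefrontal cortex after early life stress (ELS). Members were chosen by gene symbol: names starting with Ndufa, Ndufb, Ndufc, Ndufs or Ndufv and a digit (complex I), the symbols Sdha to Sdhd (complex II), names starting with Uqcr (complex III), Cox4 to Cox8 (complex IV) and Atp5 (complex V), without the Ndufaf assembly factors. This gave 82 of the 16041 gene rows of the table, holding 79 distinct symbols: 37 rows for complex I, 4 for complex II, 9 for complex III, 16 for complex IV and 16 for complex V. The rule used no measured value. It also took in 4 genes that are named after these enzymes but are not counted among their subunits, namely Ndufa4l2, Cox7a2l, Atp5s and Atp5sl. Ndufa4 was kept with complex I, as the symbol rule places it, although its protein is now known as a part of complex IV.

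Complexes I to IV of the inner mitochondrial membrane pass electrons from NADH and succinate to oxygen, and all but complex II pump protons as they do so. Complex V, the ATP synthase, lets the protons flow back and makes ATP. Neurons draw most of their ATP from this pathway, largely to restore ion gradients after electrical activity. A small set of subunits is encoded by mitochondrial DNA and the rest by nuclear genes, so the enzymes are assembled from the products of both genomes.

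RNA was sequenced from prefrontal cortex of male Sprague-Dawley rats, with 5 control and 5 ELS libraries, 1 from each tissue sample. ELS rats had been raised under limited nesting, a paradigm of scarce nest material, from postnatal day 2 to 9, and tissue was taken at postnatal day 91. The labels name no treatment for the controls and do not give the litters. The p-values therefore rest on the spread between these tissue samples alone. In whole tissue, fewer cells of a type and less RNA per cell cannot be told apart. The unit of level is RPKM, a read count divided by gene length and library total, and a value with ± is the mean and SD of 5 libraries. Log2 differences are ELS minus control of log2(RPKM + 0.1), a scale that shrinks the change of low genes. Rows counted as higher or lower are counted by the sign of this log2 difference, which for a few genes near 0 is not that of the RPKM means. The differences were tested with limma, two-sided, with Benjamini-Hochberg adjustment over all genes tested and a threshold of 0.05.

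Library totals were 18838898 to 22311136 reads, of which the members held 0.582% to 0.637%. All pairs of libraries within a group differed by more than sampling noise. Control replicate 4 stood apart from its group, with a mean chi-square per gene of 42.1 to 44.6 against the other controls. Pairs of the other controls were at 5.0 to 11.3. Pairs of ELS libraries were at 2.84 to 15.2, highest for ELS replicates 2 and 3. Neuronal markers were plentiful in every library. The 10 excitatory markers summed to 1895 to 2127 RPKM in control libraries and 2062 to 2389 in ELS, and 8 of 10 had positive log2 differences (median 0.21). The 9 inhibitory markers summed to 283.6 to 620.6 and 584.1 to 640.3 RPKM, where the lowest sum was that of control replicate 4. All 9 had positive log2 differences (median 0.27). All 12 oligodendrocyte and myelin markers had negative log2 differences, with sums of 1205 to 2454 RPKM in controls, highest in control replicate 4, and 905.6 to 1191 in ELS. All 10 astrocyte markers (sums of 1279 to 1521 and 1114 to 1250 RPKM) and all 9 microglia markers (143.1 to 163.7 and 124.7 to 147.0) also had negative log2 differences, as did 7 of 8 endothelial and pericyte markers (73.0 to 94.0 and 80.8 to 91.2), 4 of 4 blood markers (411.5 to 981.0 and 213.8 to 438.0) and 4 of 6 muscle markers (28.6 to 35.0 and 27.8 to 32.7). No marker was at 0 in all libraries, and the part these cells have in the members' values was not tested.

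Members were among the more abundant transcripts of the tissue. Their median level was 69.6 RPKM, where the median of the 14642 genes tested was 7.2 RPKM, and mean levels ran from 0.307 to 435.4 RPKM. By median over tested rows, complex V stood highest at 110.4 RPKM, followed by complex IV at 82.9, complex III at 76.8, complex II at 66.3 and complex I at 55.2, with wide overlap between them. The highest member was Atp5b (complex V, 435.4 RPKM), the catalytic beta subunit of the ATP synthase head. Next stood Cox6a1 (351.8 RPKM) and Cox4i1 (324.5 RPKM), the common forms of 2 regulatory subunits of cytochrome c oxidase.

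Within a complex, levels differed many times over between rows. In complex V the gamma subunit Atp5c1, the rotating central stalk of the same head as Atp5b, was at 20.2 RPKM. Its gene model of 7359 bases was the longest of the members. In complex I the range was from Ndufb8, an accessory membrane-arm subunit, at 128.6 RPKM to Ndufa12 at 5.23 RPKM, with Ndufa4l2, not a subunit, below it at 2.33 RPKM, and in complex III from Uqcr11, a small subunit, at 204.9 RPKM to the longer of 2 rows named Uqcrb at 16.4 RPKM. Complex II was the most even, from Sdha, the flavoprotein that oxidises succinate, at 90.5 RPKM to Sdhd, a membrane anchor, at 51.1 RPKM. In complex V the lowest row was Atp5s, a coupling factor gene matched by name only, at 5.17 RPKM.

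**Figure D1:**
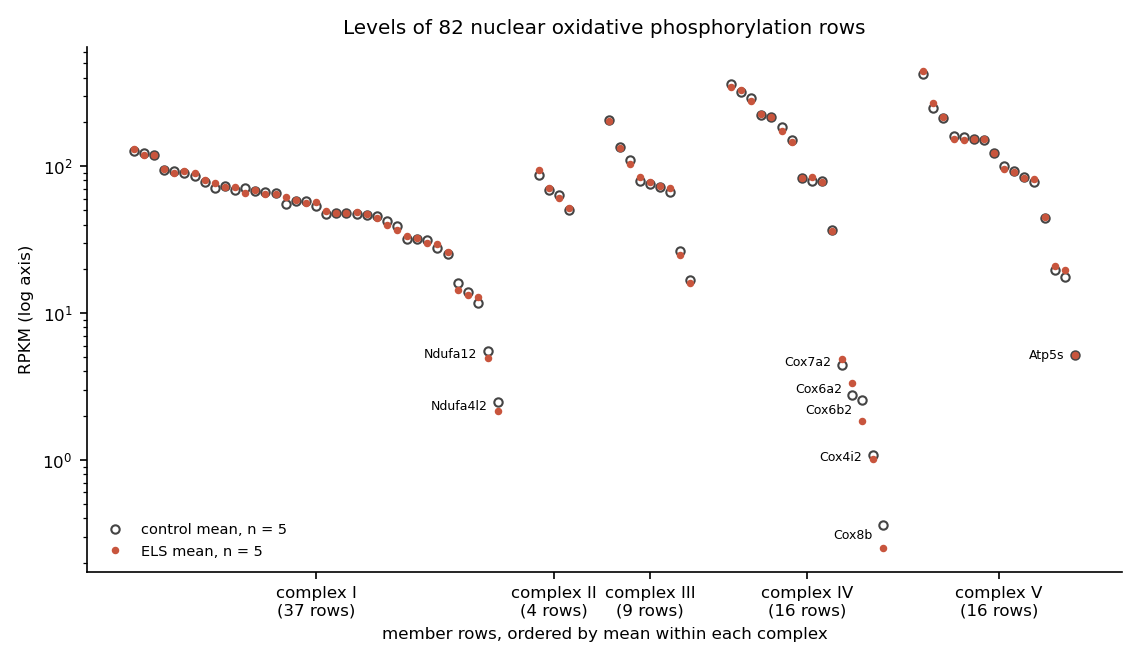
Mean RPKM (log axis) of the 82 member rows in control (open circles, n = 5) and ELS libraries (filled circles, n = 5), ordered by level within each complex. Most rows lie between 10 and 500 RPKM with the circles on top of each other, and the 8 named rows lie under 6 RPKM.

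Means were under 6 RPKM in 8 rows, and several of these encode isoforms known from other tissues. Cox6a2 and Cox8b are the heart and skeletal muscle forms of 2 cytochrome c oxidase subunits, Cox6b2 is the testis form of another, and Cox4i2 is a form best known from lung and from low oxygen. Cox8b was at 0.767, 0.569, 0.158, 0 and 0.319 RPKM in control replicates 1 to 5 and at 0.160, 0.166, 0.468, 0.149 and 0.316 RPKM in the ELS libraries. That is 0 to 5 reads per library, and the count of 0 in control replicate 4 allows up to 0.422 RPKM (3 reads, counting error only). It was the 1 member that did not pass the filter of at least 0.5 RPKM in 5 libraries, which left 81 tested. The other rows under 6 RPKM were Cox4i2, Cox6a2, Cox6b2, Cox7a2, Ndufa4l2, Ndufa12 and Atp5s.

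Cox7a2, the non-muscle form of its subunit, was at only 4.64 RPKM. The gene of the muscle form, Cox7a1, had no row under that symbol, so its level is not known here. Where a gene has near-identical copies elsewhere in the genome, reads can be split between them, which was not tested here. Levels are therefore uncertain for the 3 symbols with 2 rows each: Cox6b1 (gene models of 261 and 601 bases, 216.3 and 36.4 RPKM), Uqcrb (475 and 1029 bases, 72.7 and 16.4 RPKM) and Ndufv3 (327 and 1562 bases, 37.9 and 13.6 RPKM). The sources used here do not give the strand setting of the counting, so reads of overlapping antisense genes may be included as well.

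Promoters of many of these genes are known for binding sites of nuclear respiratory factor 1 (NRF-1), of ETS-family factors such as GABP (also called NRF-2), and of YY1. RefSeq windows of 300 bases, from 250 before to 50 after the annotated start (build GRCr8), were matched to 71 of the 82 rows by symbol or synonym and gave 69 distinct windows. Each was searched on both strands for GCGCANGCGC (NRF-1), CCGGAAG (ETS), ATGGCGGC (YY1) and GGGCGG (Sp1). An NRF-1 match was in 20.3% of the member windows, in 4.71% of all 27457 rat windows and in 9.71% of the 10404 windows of tested genes. For ETS these shares were 27.5%, 9.22% and 16.6%, for YY1 15.9%, 2.76% and 5.71%, and for Sp1 40.6%, 34.9% and 62.3%. By complex, an NRF-1 match was in 7 of 33 windows of complex I, 1 of 4 of complex II, 1 of 6 of complex III, 0 of 12 of complex IV and 5 of 14 of complex V.

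The 6 windows printed were chosen after the values were seen, as examples of an abundant and of rare members and of members the group comparison turns on. Cox8a and Cox8b are the abundant and the nearly silent gene of 1 subunit. Cox6a2 is the other muscle form and had the largest positive log2 difference of the members. Sdha holds the most NRF-1 matches. Ndufs1 had the lowest p of all members, and Atp5g2 (Atp5mc2 in RefSeq) was the 1 member whose groups did not overlap. Each runs 5′ to 3′ along the gene's strand, and capitals mark NRF-1 and ETS matches only.
Cox8a: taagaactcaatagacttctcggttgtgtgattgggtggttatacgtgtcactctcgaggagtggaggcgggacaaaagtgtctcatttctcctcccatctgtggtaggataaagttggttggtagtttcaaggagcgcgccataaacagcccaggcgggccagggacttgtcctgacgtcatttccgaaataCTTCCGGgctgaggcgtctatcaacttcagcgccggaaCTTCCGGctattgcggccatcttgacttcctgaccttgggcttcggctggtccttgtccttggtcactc
Cox8b: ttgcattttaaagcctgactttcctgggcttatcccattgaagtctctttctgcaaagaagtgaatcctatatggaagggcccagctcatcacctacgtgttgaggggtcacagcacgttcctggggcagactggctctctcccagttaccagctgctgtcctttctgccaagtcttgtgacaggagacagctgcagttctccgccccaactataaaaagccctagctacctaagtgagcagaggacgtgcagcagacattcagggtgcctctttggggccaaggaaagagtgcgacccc
Cox6a2: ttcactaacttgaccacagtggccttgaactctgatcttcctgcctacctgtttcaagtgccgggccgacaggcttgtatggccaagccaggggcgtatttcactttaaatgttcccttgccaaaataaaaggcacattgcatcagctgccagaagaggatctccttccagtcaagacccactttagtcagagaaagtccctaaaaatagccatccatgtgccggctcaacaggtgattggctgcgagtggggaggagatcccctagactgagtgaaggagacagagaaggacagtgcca
Sdha: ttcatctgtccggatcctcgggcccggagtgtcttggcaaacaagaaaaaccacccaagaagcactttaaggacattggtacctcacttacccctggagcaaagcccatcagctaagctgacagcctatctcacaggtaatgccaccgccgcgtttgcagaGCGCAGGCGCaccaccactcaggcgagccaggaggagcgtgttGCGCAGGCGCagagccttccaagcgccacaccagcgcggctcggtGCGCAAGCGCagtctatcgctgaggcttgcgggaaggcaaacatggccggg
Ndufs1: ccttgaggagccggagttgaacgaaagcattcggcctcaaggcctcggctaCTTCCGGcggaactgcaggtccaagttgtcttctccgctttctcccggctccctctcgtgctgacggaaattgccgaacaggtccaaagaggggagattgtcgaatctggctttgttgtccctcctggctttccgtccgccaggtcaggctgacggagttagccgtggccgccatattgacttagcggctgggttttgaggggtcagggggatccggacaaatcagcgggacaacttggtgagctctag
Atp5g2: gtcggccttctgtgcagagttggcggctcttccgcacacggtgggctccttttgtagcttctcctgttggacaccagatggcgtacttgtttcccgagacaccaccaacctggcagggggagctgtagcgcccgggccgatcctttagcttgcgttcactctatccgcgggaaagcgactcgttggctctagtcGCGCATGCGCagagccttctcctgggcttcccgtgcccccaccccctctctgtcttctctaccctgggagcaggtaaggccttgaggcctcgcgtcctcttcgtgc
The windows are chr1:213833574-213833873 (Cox8a, minus strand), chr1:205408224-205408523 (Cox8b, minus), chr1:192219667-192219966 (Cox6a2, minus), chr1:30764303-30764602 (Sdha, plus), chr9:72073556-72073855 (Ndufs1, minus) and chr7:135678169-135678468 (Atp5g2, minus). Cox8a had 2 ETS matches, Sdha 3 NRF-1 matches, Ndufs1 1 ETS match beside a YY1 match that is not capitalised, and Atp5g2 1 NRF-1 match. Cox8b and Cox6a2 had neither NRF-1 nor ETS letters, and held 5 CpG dinucleotides each, where the median member window had 20. Other members broke this contrast. The window of Cox7b (81.9 RPKM) had 6 CpG and neither motif. So did that of Cox6b1, matched by symbol, whose 2 rows were at 216.3 and 36.4 RPKM. The windows of Ndufa12, Cox7a2 and Atp5s, all under 6 RPKM, had 24, 27 and 28 CpG. A match is a description of these letters and not a measured binding site. Members with and without an NRF-1 match had nearly the same median log2 difference between groups (0.0144 over 14 members and 0.0126 over 54), and so did those with and without an ETS match (0.0136 over 19 and 0.0116 over 49). For YY1 the medians were 0.0511 over 11 members with a match and 0.0032 over 57 without, and for Sp1 0.017 over 27 and 0.0097 over 41; these differences were not tested.

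The comparison of ELS with control asks whether the adult cortex carried a different output of these genes long after the stress. No member passed the adjusted threshold: limma called 0 of 81, with a lowest adjusted p of 0.165, and likewise 0.0% of all 14642 genes tested. At an unadjusted p under 0.05 there were 8 members, 3 higher and 5 lower in ELS, which is 9.88% of the members. Over all genes tested the share was 20.4%, made up of 10.1% higher and 10.3% lower, and over the 3165 genes with a mean of at least 20 RPKM it was 31.4%. The limma-voom method on reads recovered from the table also called 0 members, with 2 higher and 2 lower at an unadjusted p under 0.05.

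The differences were small in both directions. The log2 difference was above 0 in 45 members and below 0 in 36, with a median of 0.00973, beside 0.00371 over all genes tested and 0.0620 over genes of at least 20 RPKM. The size of the log2 difference, sign aside, was under 0.1 in 66 of 81 members (81.5%), against 43.6% of all genes and 50.6% of genes of at least 20 RPKM. The 95% interval of the difference lay within a 1.25-fold change either way in 73 members (90.1%), against 46.2% and 71.1%. All 74 tested rows of at least 6 RPKM had log2 differences from -0.17 to 0.17. Summed over the tested members, RPKM was 7241 ± 200 in control libraries and 7267 ± 83.5 in ELS (n = 5 each), and the groups overlapped.

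**Figure D2:**
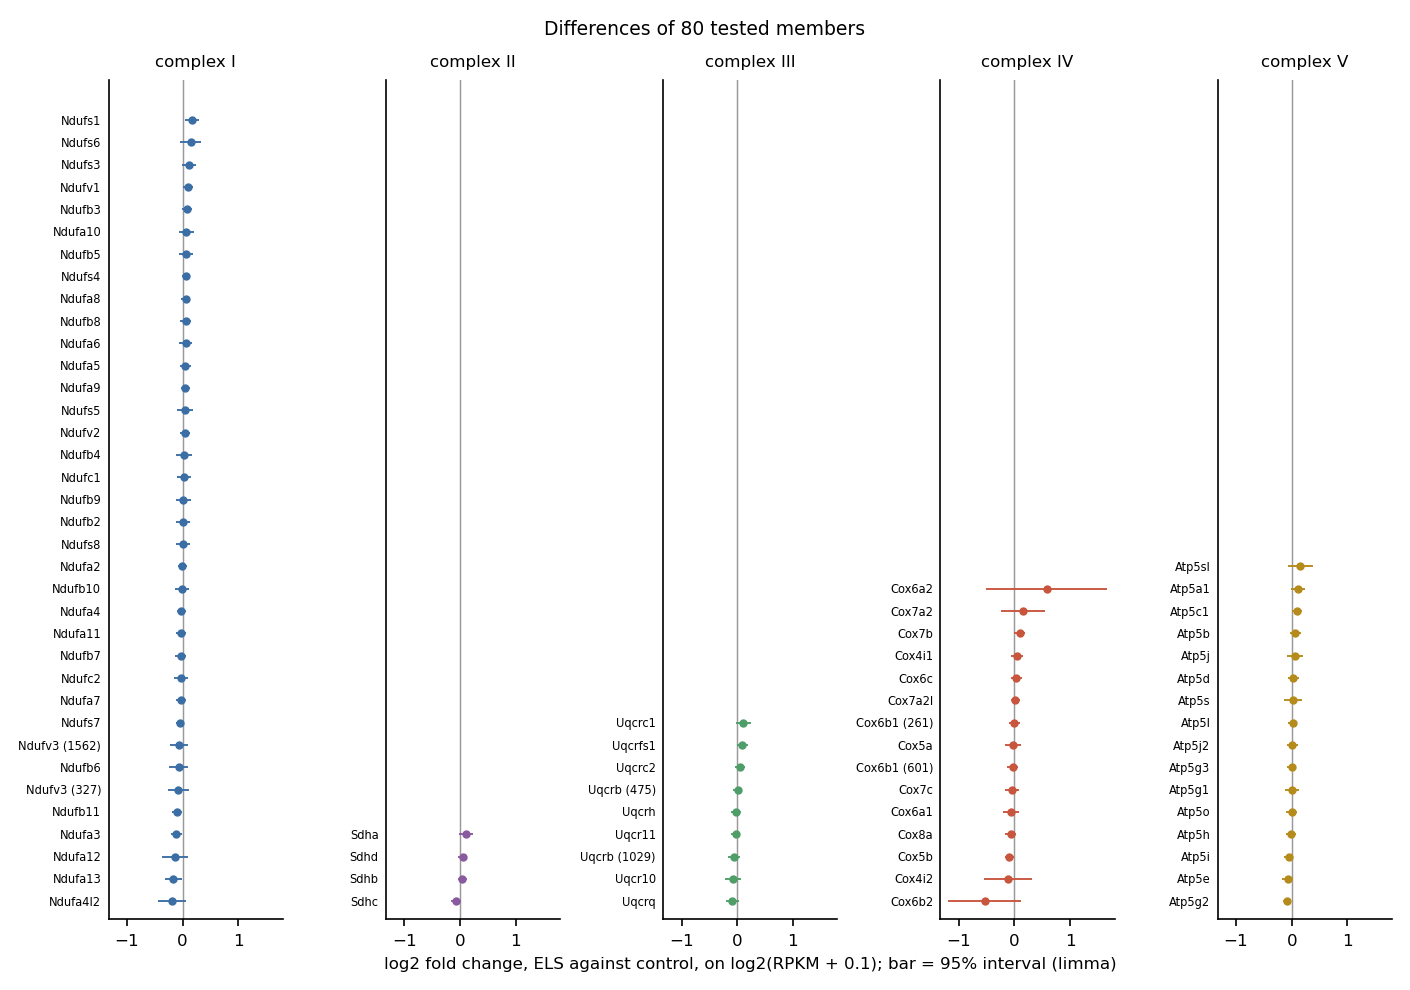
Log2 difference of 80 of the 81 tested members, ELS minus control of log2(RPKM + 0.1), by complex, with 95% intervals from limma; numbers after a symbol are gene model lengths in bases where a symbol has 2 rows. Nearly all points lie within 0.2 of 0, and the wide intervals in complex IV belong to Cox6a2, Cox6b2, Cox4i2 and Cox7a2, all under 6 RPKM.

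Which members passed an unadjusted p under 0.05 depended on single libraries, so the 8 are described rather than counted as changes. The number higher in ELS was 3 with all libraries, 8 without control replicate 2, 6 without ELS replicate 2, and 1 without control replicate 3, control replicate 4, or ELS replicate 3, 4 or 5. The number lower was 5, and 1 without control replicate 1, control replicate 2 or ELS replicate 5, 2 without ELS replicate 3, and 3 without ELS replicate 1 or 2. Removing libraries also opened calls elsewhere in the table but not here. Without ELS replicate 2, 3.03% of all genes passed the adjusted threshold, without both control replicate 4 and ELS replicate 2 it was 7.62%, and with limma-voom sample weights 7.18%; each of these fits called 0 members.

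In complex I the hydrophilic arm showed the largest positive differences. The 7 core subunits measured there carry the flavin and the iron-sulfur clusters that lead electrons from NADH to ubiquinone, and 6 of 7 had positive log2 differences, with a median of 0.0368. Scaled to reads in nuclear-encoded genes the same 7 split 3 higher to 4 lower. Their median was then -0.0016, beside -0.034 over all genes tested. Ndufs1 (ENSRNOG00000011849), the largest subunit of that arm and a carrier of iron-sulfur clusters, was at 60.0, 55.6, 50.6, 51.7 and 57.0 RPKM in control replicates 1 to 5 and at 59.1, 60.7, 59.2, 67.9 and 61.9 RPKM in ELS replicates 1 to 5. Only control replicate 1 reached into the ELS range, and ELS replicate 4 was the highest. Means were 54.98 ± 3.86 and 61.8 ± 3.63 RPKM, a log2 difference of 0.17 ± 0.06 (SE; limma, adjusted p = 0.165).

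Ndufv1 (ENSRNOG00000018117), which binds NADH and the flavin, was at 70.5, 74.9, 70.3, 68.6 and 71.0 RPKM in control libraries and at 73.8, 70.7, 79.5, 78.9 and 77.7 RPKM in ELS. ELS replicates 3, 4 and 5 lay above all controls, while replicates 1 and 2 lay within their range (log2 difference 0.098 ± 0.043, limma, adjusted p = 0.232). Ndufs3, another core subunit of this arm, had a log2 difference of 0.11 ± 0.06, and 1 core subunit, Ndufs7 at the end of the cluster chain, was lower in ELS (46.0 ± 1.28 and 44.5 ± 1.2 RPKM). Control replicate 4 had the lowest core level of the 10 libraries, with a median deviation of -0.15 on the log2 scale. Without it 4 of 7 core subunits were higher and their median log2 difference was 0.0134.

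The 30 complex I rows outside the core were split evenly, 15 higher and 15 lower, with a median log2 difference of 0.000696. Among the 15 lower are Ndufa4l2 (-0.19), which is not a subunit, and Ndufa4 (-0.028), whose protein is part of complex IV. The other rows are accessory subunits. Of the 30 rows, the 3 that were lower at an unadjusted p under 0.05 are small accessory subunits. Ndufa13 (ENSRNOG00000021688), also known as GRIM-19, was at 16.0, 15.7, 15.5, 18.1 and 15.4 RPKM in control libraries and at 15.6, 12.6, 14.5, 15.4 and 13.8 RPKM in ELS. Its 4 lower controls lay close together at 15.4 to 16.0 RPKM with control replicate 4 well above them, and 2 ELS libraries overlapped the control range. The log2 difference was -0.17 ± 0.07 (limma, adjusted p = 0.215), and -0.079 without control replicate 4 and ELS replicate 2.

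Ndufa3 (ENSRNOG00000060293) was at 72.5, 72.5, 66.3, 72.8 and 70.9 RPKM in control libraries and at 64.5, 61.0, 66.2, 65.2 and 70.1 RPKM in ELS. The other 4 controls stood above all ELS libraries, and control replicate 3 fell among them (log2 difference -0.12 ± 0.05, limma, adjusted p = 0.185). Ndufb11 (ENSRNOG00000008329), a membrane-arm subunit, ranged from 39.3 to 46.0 RPKM in control libraries and from 38.6 to 40.4 RPKM in ELS, and only control replicate 5 lay in the ELS range (log2 difference -0.099 ± 0.044, adjusted p = 0.233). At the other end, Ndufs6, a zinc-binding accessory subunit, was at 11.7 ± 1.26 RPKM in control libraries and 12.9 ± 1.11 in ELS, a log2 difference of 0.14 ± 0.08. Ndufa12, an accessory subunit on the hydrophilic arm, was at 5.48 ± 0.752 and 4.98 ± 0.442 RPKM (-0.13 ± 0.11).

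Complex II joins the tricarboxylic acid cycle to the chain, and 3 of its 4 subunits had positive log2 differences, with a median of 0.0472. Sdha (ENSRNOG00000013331) was at 91.0, 92.8, 83.3, 78.9 and 89.6 RPKM in control libraries and at 91.4, 88.6, 92.5, 101.6 and 95.6 RPKM in ELS. ELS replicates 4 and 5 lay above every control, and the other ELS libraries lay within the control range (log2 difference 0.11 ± 0.06, limma, adjusted p = 0.288). Sdhb, the iron-sulfur subunit, had a log2 difference of 0.045, and the membrane anchors Sdhd and Sdhc had differences of 0.049 and -0.069. In complex II none of the 4 reached an unadjusted p of 0.05.

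Complex III hands electrons from ubiquinol to cytochrome c, and its 9 rows had a median log2 difference of -0.0193, with 4 higher and 5 lower. Uqcrfs1 (ENSRNOG00000018281), the Rieske iron-sulfur protein, was at 69.5, 69.2, 62.3, 64.4 and 69.1 RPKM in control libraries and at 67.7, 71.1, 72.6, 72.7 and 72.6 RPKM in ELS. ELS replicates 2 to 5 lay above all controls, and ELS replicate 1 lay within them (log2 difference 0.093 ± 0.043, limma, adjusted p = 0.252). The 2 large core proteins Uqcrc1 and Uqcrc2 had log2 differences of 0.11 and 0.050. The small subunits Uqcrq, Uqcr10, Uqcr11 and Uqcrh had differences of -0.089, -0.078, -0.028 and -0.019. Uqcrb, also a small subunit, had differences of 0.0072 in its row of 475 bases and -0.063 in that of 1029 bases. In complex III too, 0 rows reached an unadjusted p of 0.05.

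In complex IV, where nuclear subunits surround a catalytic core encoded by mitochondrial DNA, 6 rows were higher and 9 lower, with a median log2 difference of -0.0242. Cox5b (ENSRNOG00000016660), a zinc-binding matrix subunit, was at 185.9, 196.9, 177.3, 183.1 and 180.4 RPKM in control libraries and at 173.3, 178.1, 164.3, 177.8 and 173.4 RPKM in ELS. Control replicate 3 lay just below ELS replicates 2 and 4, and the other 4 controls lay above all ELS libraries. The means were 184.7 ± 7.53 and 173.4 ± 5.59 RPKM, a log2 difference of -0.091 ± 0.039 (limma, adjusted p = 0.229).

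Cox7b (ENSRNOG00000054689), a small membrane subunit, went the other way, at 83.2, 80.8, 80.1, 73.0 and 79.7 RPKM in control libraries and 85.4, 81.1, 84.3, 86.8 and 84.9 RPKM in ELS. Only ELS replicate 2 fell among the controls (log2 difference 0.091 ± 0.041, limma, adjusted p = 0.245). The 3 most abundant subunits of complex IV were near level: Cox6a1 at 360.4 ± 32.0 and 343.3 ± 16.4 RPKM, Cox4i1 at 319.7 ± 23.7 and 329.3 ± 9.25 RPKM, and Cox8a, the common form of subunit 8, at 289.6 ± 17.3 and 275.8 ± 9.22 RPKM.

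The muscle form Cox6a2 (ENSRNOG00000019851), which in brain is known from parvalbumin interneurons, had the largest log2 difference of the members in size and the least certain one. It was at 2.88, 2.58, 2.44, 0.472 and 5.35 RPKM in control libraries and at 2.90, 2.79, 3.56, 3.21 and 4.35 RPKM in ELS, from 5 to 50 reads per library. Control replicate 4 was the lowest and control replicate 5 the highest of all 10, so the ELS range lay inside the control range. The log2 difference was 0.58 ± 0.49 (limma, adjusted p = 0.524) and 0.076 without control replicate 4. Pvalb, the parvalbumin gene, was named here after its values were seen: it was at 49.9, 56.3, 51.7, 39.4 and 70.8 RPKM in control libraries and 66.0, 54.4, 84.95, 65.8 and 72.8 in ELS, so that control replicates 4 and 5 were the lowest and highest controls for both genes. Its part in the Cox6a2 values was not tested.

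The testis form Cox6b2 (ENSRNOG00000038616) was at 2.71, 2.80, 3.43, 2.10 and 1.84 RPKM in control libraries and at 0.760, 1.69, 2.65, 1.82 and 2.25 RPKM in ELS, from 7 to 32 reads. The groups overlapped, and ELS replicate 1 was far below the rest (log2 difference -0.54 ± 0.30, limma, adjusted p = 0.328, and -0.27 without ELS replicate 1). Cox4i2 was at 1.08 ± 0.115 and 1.01 ± 0.278 RPKM, with a log2 difference of -0.12 ± 0.19 that turned to 0.045 without ELS replicate 1. Cox7a2 was at 4.4 ± 1.0 and 4.88 ± 0.908 RPKM (0.15 ± 0.18).

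In complex V the log2 difference was above 0 in 11 of 16 rows and below 0 in 5, with a median of 0.0117; Atp5g1, among the 11, had an RPKM mean just lower in ELS. The 5 subunits of the catalytic head and its central stalk had the highest median of the parts of the enzyme, 0.0631, with 4 higher and 1 lower. Atp5c1 (ENSRNOG00000019223) was at 18.8, 20.7, 19.3, 19.3 and 19.6 RPKM in control libraries and at 20.3, 20.2, 21.3, 21.4 and 20.9 RPKM in ELS. Control replicate 2 lay above ELS replicates 1 and 2, and the other controls lay below all ELS libraries (log2 difference 0.090 ± 0.039, limma, adjusted p = 0.232). Atp5a1 and Atp5b, the alpha and beta subunits of the head, had log2 differences of 0.11 ± 0.06 and 0.063 ± 0.046.

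Control replicate 4 had the lowest head level, with a median deviation of -0.14. Without it the head's median log2 difference was 0.0320, with 3 higher and 2 lower. The 3 genes of the c ring, the membrane rotor through which protons pass, had a median of 0.00114. Of these, Atp5g2 (ENSRNOG00000015320) was at 97.2, 104.1, 101.1, 99.1 and 101.2 RPKM in control libraries and at 95.3, 96.8, 93.5, 94.4 and 94.6 RPKM in ELS. All 5 ELS libraries lay below all 5 controls, which was so for 1 of 81 members and for 2.6% of all genes tested. The reverse, all ELS above all controls, held for 0 members and 3.08% of genes. The log2 difference of Atp5g2 was -0.082 ± 0.031 (limma, adjusted p = 0.189), from means of 100.5 ± 2.59 and 94.9 ± 1.23 RPKM.

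The peripheral stalk rows (Atp5h, Atp5j and Atp5o) had a median log2 difference of -0.00446, and the membrane accessory rows Atp5i, Atp5j2 and Atp5l one of 0.00973. The 4 genes matched by name only had a median of 0.0154. Among them Atp5sl, also named Dmac2 and linked to complex I assembly, was at 17.5 ± 2.13 RPKM in control libraries and 19.5 ± 2.06 in ELS (log2 difference 0.16 ± 0.10, and 0.085 without control replicate 4). Ndufa4l2, induced in low oxygen, was at 2.49 ± 0.376 and 2.16 ± 0.196 RPKM (-0.19 ± 0.11).

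**Figure D3:**
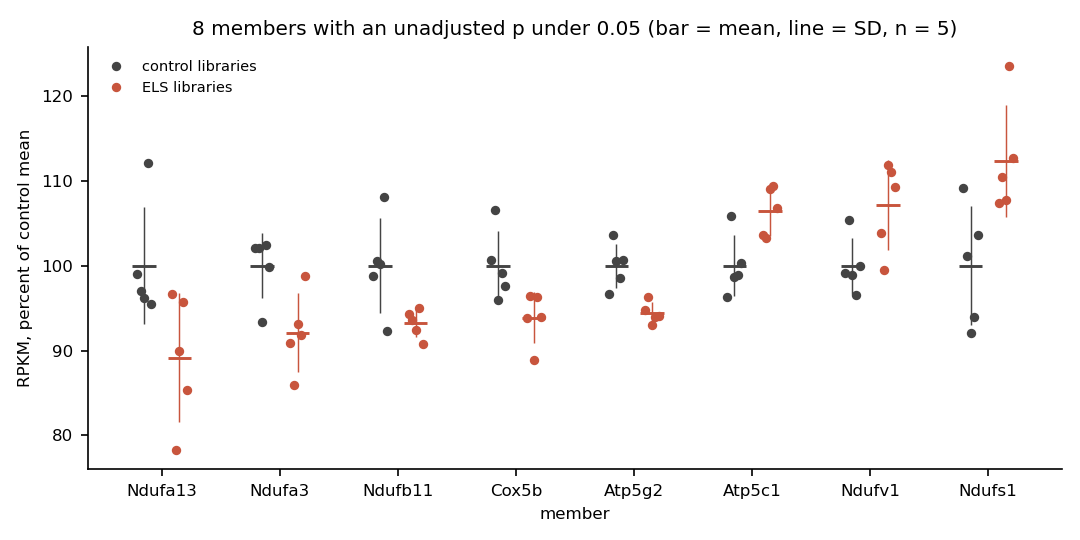
RPKM as a percent of the control mean in each library for the 8 members with an unadjusted p under 0.05 (bars, group mean; lines, SD; n = 5 per group). Only for Atp5g2 do the groups not overlap; Ndufa13 has 1 control, replicate 4, well above the other 4.

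The balance between alternative forms of a subunit was compared as a log2 ratio within each library, by a two-sided exact permutation test over 252 assignments, whose smallest possible p is 0.00794, with Benjamini-Hochberg adjustment over the 6 pairs tested of 8 listed. The common form outweighed the rare one by 311.6 times for Cox4i1 over Cox4i2, 115.2 times for Cox6a1 over Cox6a2, 114.6 times for the summed Cox6b1 rows over Cox6b2, and 51.9 times for Ndufa4 over Ndufa4l2. The log2 ratio of rare to common form differed between groups by -0.17 for Cox4i2 (exact p = 0.444, adjusted 0.533), 0.64 for Cox6a2 (exact p = 0.238, adjusted 0.357), -0.53 for Cox6b2 (exact p = 0.0873, adjusted 0.262) and -0.16 for Ndufa4l2 (exact p = 0.206, adjusted 0.357). Cox6a2 again turned on control replicate 4, at -9.09, where the other 9 libraries lay between -7.22 and -6.01.

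The 3 c-ring genes encode the same mature c subunit with different import sequences, and in this tissue they were within a small factor of each other: Atp5g3 was 1.84 times Atp5g1 and 1.58 times Atp5g2. The log2 ratio of Atp5g2 to Atp5g3 was -0.638, -0.597, -0.584, -0.579 and -0.667 in control libraries and -0.643, -0.648, -0.761, -0.749 and -0.687 in ELS. Only control replicate 5 lay within the ELS range. The difference of -0.085 had an exact permutation p of 0.0317, the lowest of the 6 pairs, and an adjusted p of 0.190. The ratio of Atp5g1 to Atp5g3 differed by -0.0013 (exact p = 0.968).

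Members varied little between libraries of 1 group, and control replicates 4 and 2 were most often their lowest and highest library. The median coefficient of variation was 5.00% in controls, 3.93% in controls without replicate 4, and 4.37% in ELS, against 7.56%, 5.21% and 5.13% over genes of at least 20 RPKM. Control replicate 4 was the lowest of the 10 libraries in 31 members (38.3%) and the highest in 9, beside 34.0% and 22.5% of genes of at least 20 RPKM. Control replicate 2 was the highest in 17 members (21.0%), beside 5.53% of those genes. The median deviation over all members ran from -0.052 in control replicate 4 to 0.038 in control replicate 2, and the ELS libraries lay between -0.018 and 0.034. Complex III departed from this in control replicate 4, where its median was 0.068 while the other 4 complexes were between -0.058 and -0.021.

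**Figure D4:**
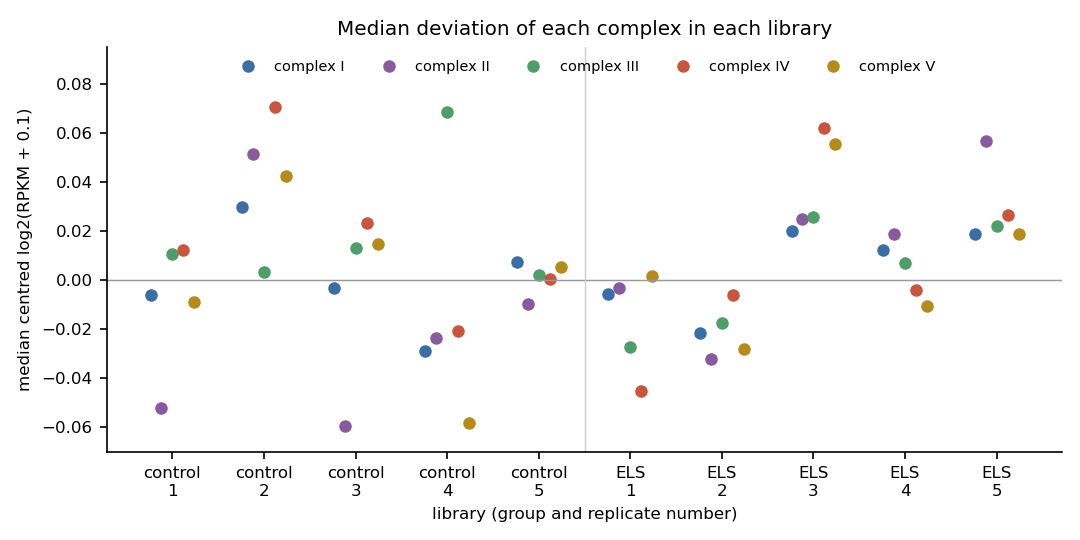
Median over the tested rows of each complex of log2(RPKM + 0.1), centred per gene on its mean over the 10 libraries, for each library. Control replicate 4 is negative for complexes I, II, IV and V, the lowest of the 10 libraries only for I and V, and positive for complex III. Control and ELS libraries overlap for all 5 complexes.

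Summed levels gave the same order of sizes. Complex I summed to 2076 ± 41.5 RPKM in control libraries and 2095 ± 19.8 in ELS, complex II to 270.4 ± 8.18 and 278.1 ± 7.62, complex III to 788.8 ± 5.23 and 787.9 ± 9.54, complex IV to 2031 ± 92.1 and 2003 ± 25.2, and complex V to 2075 ± 69.4 and 2103 ± 39.4. Ranges overlapped in all 5. The small median over all members, and those of complexes I and V, changed sign with the scaling and without control replicate 4. Scaled to reads in nuclear-encoded genes, the members split 28 higher to 53 lower with a median log2 difference of -0.029. The same scaling moved the median of all genes tested from 0.0037 to -0.034. Without control replicate 4 the members split 37 to 44 with a median of -0.00893, beside 0.0078 over all genes tested. The median of complex III turned to 0.000745 without control replicate 3 and that of complex IV to 0.022 without ELS replicate 1.

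Longer members tended to have the more positive differences, a pattern named after the values were seen. Over 81 members, Spearman's rho between gene model length and log2 difference was 0.378, a description across genes that share the same 10 libraries. Of the 26 rows of at least 1000 bases, 21 had positive log2 differences (median 0.0567), while rows of 500 to 1000 bases split 13 to 19 (-0.0143) and shorter ones 11 to 12 (-0.00348). Genes of at least 20 RPKM had medians of 0.0745, 0.0068 and -0.0172 in the same classes, and a rho of 0.214, so the order by length was not limited to the members. Over all genes tested rho was 0.0112. The longer members include catalytic and core subunits such as Ndufs1, Ndufv1, Sdha, Uqcrc1, Atp5a1 and Atp5b, and the part that length and role each have in the pattern was not tested.

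**Figure D5:**
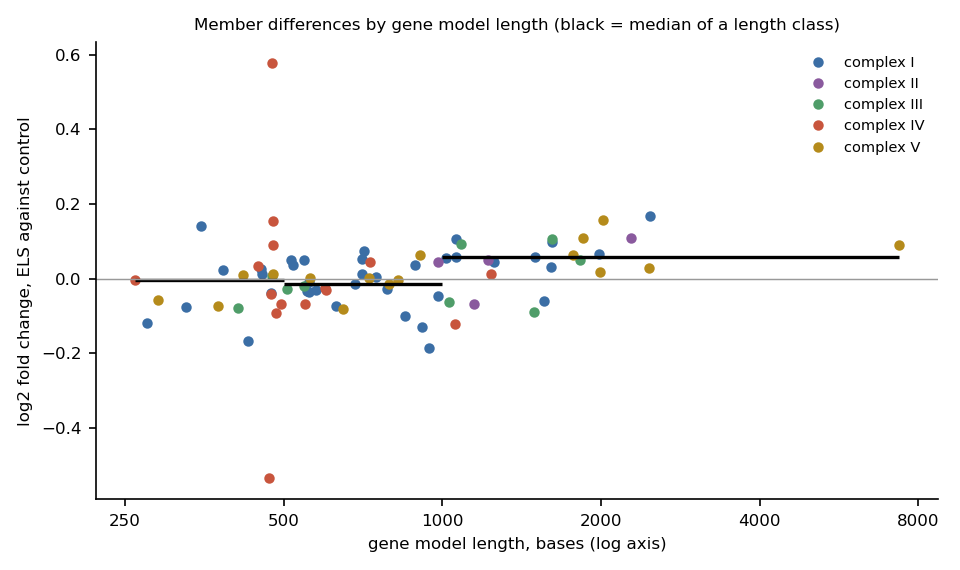
Log2 difference, ELS against control, of the 81 tested members against gene model length in bases (log axis), coloured by complex, with black lines at the median of each length class. The class of at least 1000 bases has a median of 0.0567 and the 2 shorter classes have medians just below 0.

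The subunits encoded by mitochondrial DNA, 12 of 13 measured (without Mt-co3 of complex IV), had a median log2 difference of -0.13. Of these, 11 had negative log2 differences, 5 of them at an unadjusted p under 0.05, and limma called 0. Over all genes tested, 10.3% were lower at that unadjusted p. Mt-nd1, the core complex I subunit beside the quinone site, was at 6894 ± 287 RPKM in control libraries and 5866 ± 252 in ELS (log2 difference -0.23 ± 0.04, limma, adjusted p = 0.133). Mt-nd2 (-0.17), Mt-nd3 (-0.052), Mt-nd4 (-0.20), Mt-nd4l (-0.12), Mt-nd5 (-0.13) and Mt-nd6 (-0.16) also lay below 0, as did Mt-cyb of complex III (-0.10), Mt-co1 of complex IV (-0.11), and Mt-atp6 (-0.13) and Mt-atp8 (-0.20) of complex V. The log2 difference of Mt-co2 was 0.0057, with nearly equal RPKM means (9639 and 9638).

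The summed mitochondrially encoded level over the summed nuclear level of complex I was 11.2, 10.3, 11.7, 11.1 and 10.3 in control libraries and 9.62, 9.94, 9.94, 8.90 and 9.53 in ELS. No ELS library reached the lowest control (10.9 ± 0.607 and 9.59 ± 0.428). For complexes III, IV and V the ratio was 9.08 ± 0.900 and 8.46 ± 0.392, 10.7 ± 0.493 and 10.4 ± 0.50, and 7.74 ± 0.664 and 6.91 ± 0.388, with groups that overlapped. For complex IV the mitochondrially encoded part of this ratio, and of the median below, is Mt-co1 and Mt-co2 only. By complex, the median log2 difference was -0.16 (complex I), -0.10 (III), -0.052 (IV) and -0.16 (V) for mitochondrially encoded subunits, beside 0.012, -0.019, -0.024 and 0.012 for nuclear ones. Reads in mitochondrial genes were 6.81% to 8.05% of library totals in control libraries and 6.26% to 7.0% in ELS, and the part that handling of the tissue or poly(A) selection has in this share was not tested.

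Lists of genes that work beside the enzymes are given next. For scale, the log2 difference was above 0 in 50.6% of all genes tested and in 70.1% of genes of at least 20 RPKM. An unadjusted p under 0.05 (limma) was reached by 20.4% and 31.4% of these genes. Among 11 subunits and carriers outside the naming rule, such as cytochrome c and the adenine nucleotide and phosphate carriers, 10 were higher (median log2 difference 0.0666), and 1, the outer membrane channel gene Vdac3, was higher at an unadjusted p under 0.05 (99.4 ± 2.66 and 105.2 ± 3.30 RPKM). Of 15 complex I assembly factors 11 were higher (median 0.0439), 2 at an unadjusted p under 0.05. Ndufaf5, which modifies a core subunit during assembly, had the lowest p, at 16.0 ± 0.826 and 18.2 ± 0.918 RPKM (log2 difference 0.18 ± 0.05, limma, adjusted p = 0.133). All its ELS libraries lay above all controls, as in 3.08% of all genes tested. Of 33 assembly factors of complexes II to V 21 were higher (median 0.0515), 3 at an unadjusted p under 0.05, led by Sdhaf3, a complex II assembly factor (8.79 ± 0.635 and 10.3 ± 0.396 RPKM, 0.23 ± 0.06).

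Of 17 tricarboxylic acid cycle genes 14 were higher (median 0.0642), with 6 higher and 2 lower at an unadjusted p under 0.05. Sucla2, the ATP-forming succinyl-CoA ligase subunit, had the lowest p, at 56.0 ± 3.35 and 63.2 ± 3.0 RPKM (0.17 ± 0.05, adjusted p = 0.135). Regulators of mitochondrial biogenesis split 11 to 9 (median 0.00982), with 2 higher and 1 lower at an unadjusted p under 0.05 and Lrpprc, which stabilises mitochondrial messenger RNA, in the lead (19.2 ± 0.633 and 21.3 ± 0.892 RPKM, 0.15 ± 0.04). In these 5 lists limma called 0 genes, and whether they differ from the members was not tested.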

How the data were processed

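The deposited table holds RPKM values of 16041 rat genes in 10 libraries, 5 per group. Per the labels' protocols, total RNA was made into stranded poly(A)-selected libraries, and alignment with STAR, counting with featureCounts and the build rn6 stand in the submitters' processing notes, without versions. The authors' unit may be RPKM or FPKM, which no source used here settles; RPKM is used in the text. Within each gene the deposited RPKM values were whole multiples of 1 step, which gave back whole reads (tolerance of 0.002 reads), library totals and the length of each gene.

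Genes with at least 0.5 RPKM in 5 libraries were tested (14642, 81 of them members) on log2(RPKM + 0.1) with limma 3.58.1 in R 4.3.3, with trended and robust moderation of variances, checked on simulated data. The members and lists were chosen with earlier results of these data known, so no list was tested. Named were the members of lowest p per direction in each complex, the 5 largest differences per direction, the highest and lowest per complex, and isoform pairs. In each other list, apart from the cell type markers, the gene of lowest p was named. Ndufv1, Ndufb11, Pvalb and members named for their role were chosen after their values were seen. Promoters came from RefSeq (GRCr8), and 11 member rows had no match. The values of 1 member are not reported here. Alternatives covered pseudocount, filter, scaling, limma-voom, left-out libraries and a replicate block.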

Additional observations from a re-analysis of the deposited data

Results flagged for a closer look

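Of 50 groups of values examined, 2 held a library far from the other 4 of its group, where chance picks about 1 in 20 such groups. Ndufa13 in control replicate 4 was at 18.1 RPKM, while the other controls were at 15.4 to 16.0 RPKM. Ndufa3 in control replicate 3 was at 66.3 RPKM, below the other controls at 70.9 to 72.8 RPKM. With any 1 library left out, the log2 difference of Ndufa13 was -0.20 to -0.12 and that of Ndufa3 -0.14 to -0.094.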

How the results depend on the processing

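Under all 21 other settings 0 members passed the adjusted threshold; the lowest adjusted p of a named member was 0.0968 and of an isoform pair 0.0952. The 19 members followed were picked from these data for a low p or a large difference. The settings reuse the same libraries, so a kept direction is not an independent check. Of the 19, 18 kept 1 direction throughout. Cox4i2 did not: leaving out single libraries gave log2 differences of -0.23 to 0.045. The log2 ratio of Atp5g1 to Atp5g3 ranged from -0.042 to 0.026 in the same way. Members higher at an unadjusted p under 0.05 (3) numbered 1 under upper-quartile scaling and 1 under scaling to nuclear-encoded reads, and 1 to 8 with a library left out. Those lower (5) numbered 9 under nuclear-encoded scaling, 2 with limma-voom, 3 with its sample weights, and 1 to 6 with a library left out. Nuclear-encoded scaling gave median log2 differences of -0.029 (all members), -0.027 (complex I), -0.058 (III), -0.063 (IV) and -0.027 (V). The median of all genes tested was -0.034 under that scaling. Complex IV ranged from -0.039 to 0.022 with a library left out. The cause of these moves was not tested. Same-numbered libraries did not deviate together over the genes tested (correlations of -0.082 to 0.066). This does not settle whether the numbers pair them, and the labels do not say what a shared number means. With a replicate block 1 member was higher and 1 lower at an unadjusted p under 0.05. At 5 to 50 reads, depth limits Cox6a2, as it does Cox6b2 and Cox8b.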
